A study of Mus musculus with 12 samples.

Results

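The response of Null RAW264.7 cells to etoposide was measured by RNA-seq as the comparison of 3 libraries from cells exposed to the drug at 100 µM for 8 h with 3 libraries from control cells of the same line. These 6 libraries were chosen from the 12 of the study by their sample titles, and all 32688 genes of the count table were considered, of which 18066 had enough counts to be tested. RAW264.7 is a mouse macrophage cell line, and Null cells carry intact Tfeb and Tfe3. The other 6 libraries came from a CRISPR-made line that lacks TFEB and TFE3 (DKO), as control cells and after the same exposure. Each genotype is represented by 1 line, and the 3 replicates of a group therefore show the spread between cultures and libraries, and nothing in the labels says how far the cultures were kept apart. Control cells are untreated by their labels, while DMSO appears as vehicle in the study's methods. The labels also name 2 RNA isolation kits without assigning them to libraries.

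Etoposide holds topoisomerase II on DNA after it has cut both strands, so that DNA breaks accumulate. Breaks activate the kinases ATM and ATR, which stabilise the transcription factor p53, the product of Trp53. p53 then raises genes for its own regulators, for cell cycle arrest and for apoptosis, and through p21 (Cdkn1a) it keeps the DREAM complex on the promoters of cell cycle genes, which are repressed. Blocked topoisomerase can also hold up RNA polymerase II within long genes. In macrophages, DNA damage is known to raise inflammatory cytokine genes as well.

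The Null libraries held 29837255 to 58428399 counts each. Control replicate 1 had the fewest counts and the largest distance to the other replicates of its group (0.51 on the log2 scale against 0.27 to 0.43 in the other 5). Levels are CPM, counts brought to a common library size, a change is given as log2 of etoposide over control with its standard error (SE), and genes with an adjusted p under 0.05 in limma were counted as called. Because CPM are shares of a library, a gene's RNA per cell and the number of cells that express it cannot be told apart. Between replicates, the standard deviation of the median gene was 0.21 on the log2 scale in control and 0.09 in treated cells. RNA of the mitochondrial genome, mainly ribosomal, took 14.1% to 18.3% of the counts in control and 19.4% to 21.7% in etoposide-treated libraries, and their part in the results was not tested. The summed level of 8 macrophage markers was 4995 to 5161 CPM in control and 4400.4 to 4700.4 CPM in etoposide-treated libraries, so the macrophage label held in all 6 libraries. 8 fibroblast markers summed to 0.650 to 0.934 CPM in control and 1.97 to 2.07 CPM in treated libraries, and 9 measured markers of T cells, B cells and granulocytes to 0.477 to 0.609 and 0.957 to 1.14 CPM. Both sums were higher in every treated library but stayed near 0, and their part in the results was not tested. Tfe3 stood at 119, 105 and 89.4 CPM in the control libraries and 103, 99.1 and 102 CPM in the treated libraries. Its groups overlapped and the change of -0.04 did not pass the test. Tfeb stood at 17.2, 16.6 and 16.8 CPM in the control libraries and 7.62, 7.10 and 7.95 CPM in the treated libraries, a fall in every treated library (log2 change -1.15 ± 0.16 SE, adjusted p = 8.99e-05). Mitf, a relative of both, also fell, from a mean of 49.8 to 25.7 CPM.

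Etoposide changed 7148 of 18066 genes (39.6%), with 3768 higher (20.9%) and 3380 lower (18.7%). Changes of at least 2-fold were called for 1497 higher genes (8.29% of those tested) and 884 lower genes (4.89%). By at least 4-fold 480 genes rose and 97 fell, by at least 8-fold 152 rose and 5 fell, and 29 rose by at least 32-fold, a size that no gene tested reached downwards. These counts include genes that pass the filter on low counts through the treated libraries alone. Among genes with at least 10 counts in every library, 698 rose and 660 fell by at least 2-fold, which put the share of rises at 51.4% against 62.9% over all genes tested. In the lowest decile of mean level of protein-coding genes 33.5% rose and 2.90% fell by at least 2-fold, against 1.96% and 7.29% in the highest decile. The median change over all genes tested was 0.03, a value that the scaling itself holds near 0. 18 called genes went from under 0.5 CPM in control cells to at least 5 CPM with etoposide, and 1 gene, Cox6a2, made the opposite move.

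**Figure D1:**
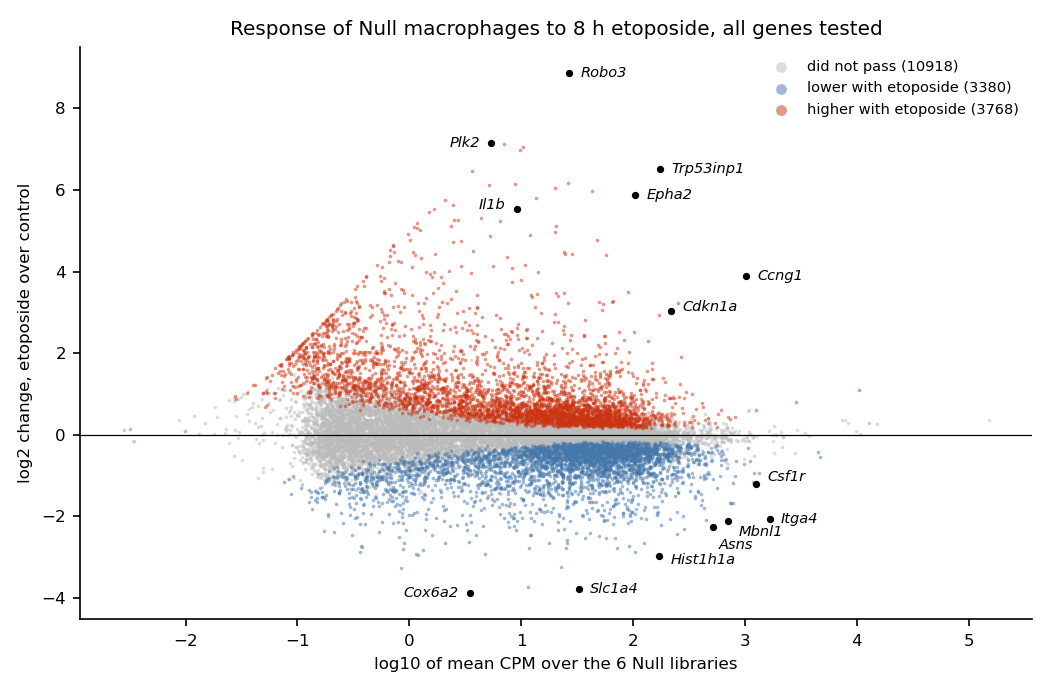
Change of each of the 18066 genes tested (log2 of etoposide over control, vertical axis) against its mean level over the 6 Null libraries (log10 CPM, horizontal axis), with called genes in red (higher) and blue (lower) and others in grey. The rises reach a log2 change of 8.87 (Robo3), whereas the falls end at -3.88 (Cox6a2).

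Among 20 protein-coding genes with the steepest rise, Robo3, a receptor that guides growing axons, came first. It stood at 0.130, 0.0404 and 0.0206 CPM in the control libraries and 51.0, 49.9 and 60.1 CPM in the treated libraries. All treated libraries lay far above the controls, which held 7 counts of this gene together, and the ratio of counts was 999.8 with a 95% exact interval from 485 to 2488 that covers counting error only (log2 change 8.87 ± 0.29 SE, adjusted p = 6.27e-10). The gene lies at chromosome 9, bases 37415669 to 37433246, of the mm10 (GRCm38) assembly. Plk2, a polo-like kinase known as a p53 target, stood at 0.0648, 0 and 0 CPM in the control libraries and 11.4, 9.85 and 10.98 CPM in the treated libraries. With 2 counts in the controls its ratio was 703 with an interval from 194 to 5811 (log2 change 7.15 ± 0.24 SE, adjusted p = 6.68e-10). The fitted log2 changes of genes near 0 in the controls understate these ratios, since a prior count of 3 is added before the logarithm, and their SE does not cover this. With a prior count of 0.5 the fitted change was 9.80 for Robo3 and 9.11 for Plk2. Cdcp1, a transmembrane substrate of Src kinases, went from 0.103 to 20.5 CPM (log2 change 7.07 ± 0.23 SE, adjusted p = 4.58e-10). Des, the muscle intermediate filament desmin, went from 0.207 to 17.3 CPM (log2 change 6.14 ± 0.36 SE, adjusted p = 8.16e-08), and Matn1, a cartilage matrix protein, from 3 counts to a mean of 7.26 CPM, a ratio of 316 with an interval from 108 to 1536. Cpt1c, a neuronal relative of carnitine palmitoyltransferase, went from 0.412 to 26.4 CPM and Slc4a11, a membrane transporter, from 0.551 to 39.8 CPM. In none of these genes did the groups overlap. Several of them are best known from tissues other than macrophages.

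Of 25 tested genes of p53 feedback and arrest 17 rose, 15 of them by at least 2-fold, 3 fell and 5 did not pass, and the median was 1.77 against 0.03 over all genes. Over all protein-coding genes 24.4% rose and 21.8% fell, the shares against which the lists were read. Cdkn1a, which encodes the CDK inhibitor p21, stood at 53.2, 50.01 and 41.4 CPM in the control libraries and 394, 386 and 396 CPM in the treated libraries. The treated libraries were 8.17-fold above the controls and close to each other (log2 change 3.03 ± 0.12 SE, adjusted p = 2.59e-09). Mdm2, the ubiquitin ligase that degrades p53, stood at 46.5, 46.6 and 53.6 CPM in the control libraries and 472, 438 and 467 CPM in the treated libraries (log2 change 3.23 ± 0.10 SE, adjusted p = 3.23e-10). Ccng1, the p53-induced cyclin G1, stood at 129, 131 and 132 CPM in the control libraries and 2008, 1868 and 1911 CPM in the treated libraries. Among called genes its gain in CPM was second to that of the noncoding Gm26917 (log2 change 3.88 ± 0.07 SE, adjusted p = 1.05e-11). Trp53inp1, a p53-induced regulator of autophagy and cell death, stood at 4.12, 3.51 and 3.46 CPM in the control libraries and 364, 318 and 345 CPM in the treated libraries (log2 change 6.51 ± 0.09 SE, adjusted p = 9e-13). Phlda3, an inhibitor of AKT, rose from 1.30 to 85.0 CPM and Eda2r, a receptor of the TNF family, from 0.322 to 10.2 CPM. Further rises were 4.48 for the adenylate kinase Ak1, 2.53 for Gtse1, 2.00 for the antiproliferative Btg2 and 1.77 for Sesn2, a sestrin that restrains mTORC1.

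Not every classical p53 gene rose. Trp53 itself stood at 609, 382 and 264 CPM in the control libraries and 364, 348 and 375 CPM in the treated libraries, so that the controls spread over both sides of the treated libraries and the change of -0.12 did not pass. Gdf15, a secreted stress hormone of the TGF-beta family, was at 0.186 to 0.519 CPM in control and 0.114 to 0.27 CPM in treated libraries and did not pass with all libraries (without control replicate 3 its change was -1.21, adjusted p = 0.0481), and the metabolic regulator Tigar and the p53 inhibitor Mdm4 changed by 0.15 and 0.02 without passing. Sesn1 fell from 43.4 to 27.9 CPM (log2 change -0.62 ± 0.12 SE, adjusted p = 0.00147). Ndrg1 also fell (log2 change -1.10 ± 0.12 SE, adjusted p = 1.43e-05), although up to 24.5% of its counts could come from an overlapping gene (shared exon bases times the counts per base of that gene).

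Among 15 p53 genes of apoptosis and autophagy, 11 rose, 1 fell and 3 did not pass (median 1.61). Fas, the death receptor, stood at 0.616, 0.505 and 0.536 CPM in the control libraries and 11.6, 10.2 and 10.3 CPM in the treated libraries (log2 change 4.14 ± 0.13 SE, adjusted p = 4.19e-10). Pmaip1 (NOXA), a BH3-only activator of apoptosis, stood at 17.1, 16.8 and 18.4 CPM in the control libraries and 84.4, 75.7 and 79.4 CPM in the treated libraries and Bbc3 (PUMA), another of this kind, at 25.7, 16.9 and 15.4 CPM in the control libraries and 66.7, 78.5 and 72.7 CPM in the treated libraries. Both were higher in every treated library, with log2 changes of 2.19 and 1.94. Bax, the pore-forming effector, rose less (log2 change 1.35 ± 0.14 SE, adjusted p = 8.26e-06), and the autophagy kinase gene Ulk1 rose from 17.6 to 92.7 CPM. Dram1, a lysosomal p53 target, fell by a small amount (log2 change -0.33 ± 0.07 SE, adjusted p = 0.00322). Of 10 p53 genes of DNA repair 3 rose, 2 fell and 5 did not pass, with a median of -0.18 (-0.11 without control replicate 3). With all libraries, both counts were near the shares of all protein-coding genes (24.4% higher and 21.8% lower). The 2 falls became 1 without control replicate 3 or etoposide replicate 2 or 3, and 4, beside 2 rises, without control replicate 1. Mgmt, which removes alkyl groups from guanine, rose from 3.05 to 15.5 CPM and the translesion polymerase gene Polk from 38.6 to 110.5 CPM, while Pcna, the polymerase clamp, fell from 208 to 138 CPM and Xpc and Ddb2 of nucleotide excision repair did not pass (0.10 and -0.16).

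To show what stands before these genes, a motif search was made in RefSeq promoters of GRCm38.p6 from 250 bases before to 50 after the start, which were found for 10050 of 12750 protein-coding gene symbols tested. A p53 site was counted as 2 half-sites of 10 bases up to 13 bases apart with at most 2 mismatches in all, on both strands. It occurred in 3.65% of all promoters, in 4.23% of the 875 promoters of genes that rose by at least 2-fold and in 3 of 21 of the feedback and arrest list. The Cdkn1a and Ccng1 promoters are given as examples with the half-sites in capitals, the first without a mismatch and the second with 1. Only the pair with the fewest mismatches is marked. In Cdkn1a the bases directly after the second marked half-site also make an allowed pair with it and stay in lower case. The windows lie at chr17:29090884-29090963 on the plus strand and chr11:40755442-40755501 on the minus strand.
Cdkn1a: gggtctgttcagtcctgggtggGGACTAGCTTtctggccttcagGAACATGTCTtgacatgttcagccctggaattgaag
Ccng1: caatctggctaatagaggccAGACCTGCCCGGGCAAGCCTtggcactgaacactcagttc

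**Figure D2:**
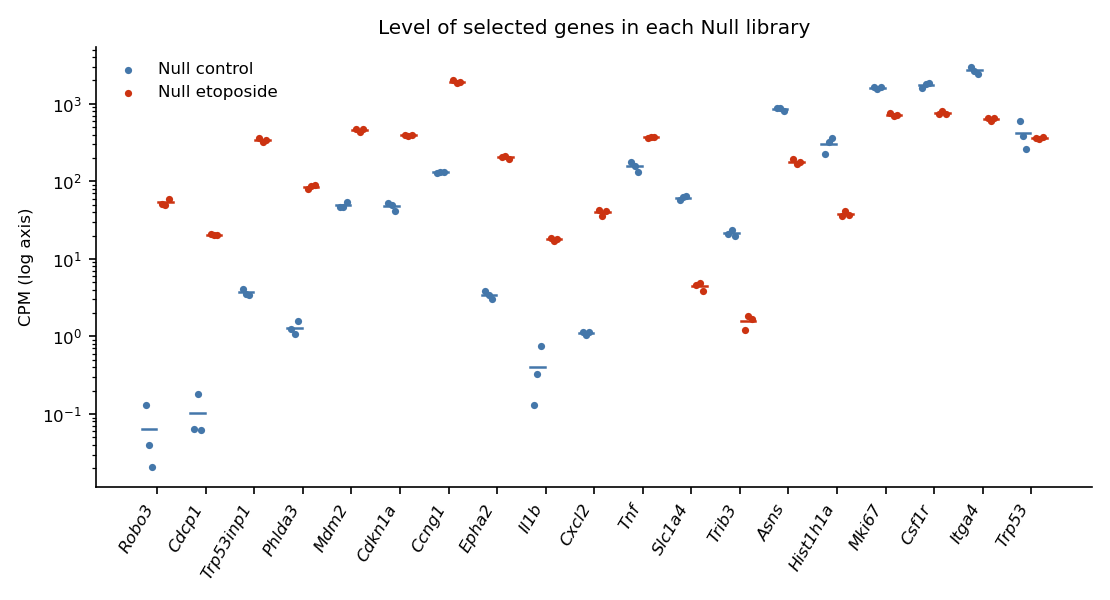
CPM (log axis) of 19 genes in each of the 3 control (blue) and 3 etoposide-treated (red) Null libraries, with a bar at each group mean. The groups are apart in all genes shown except Trp53, whose control values of 264 to 609 CPM enclose the treated ones.

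In the list of death receptors, the BCL2 family and caspases, 11 of 31 genes rose (35.5%), 8 fell (25.8%, close to the share of all protein-coding genes) and 12 did not pass, and the median was 0.21 (0.10 without control replicate 3). Bcl2l11 (BIM), a BH3-only gene, rose from 11.8 to 28.9 CPM (log2 change 1.28 ± 0.08 SE, adjusted p = 1.95e-07). Mlkl and Ripk3, which carry out necroptosis, rose by 1.19 and 0.94 on the log2 scale. The antiapoptotic Bcl2 fell from 16.7 to 7.59 CPM (log2 change -1.13 ± 0.08 SE, adjusted p = 2.38e-07), and its relative Bcl2a1d by 0.84 on the log2 scale. Mcl1, an antiapoptotic gene with a short-lived message, changed by -0.02 with overlapping groups.

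Most of the listed genes of DNA replication and of mitosis fell. Of 50 DNA replication genes 40 fell, 10 did not pass and none rose, with a median of -0.52. Of 46 mitosis genes 41 fell, 5 did not pass and none rose, with a median of -0.69. The count of rises was also 0 in both lists at an unadjusted p under 0.05 in limma, and 0 in edgeR and DESeq2. The falls were of moderate size, since 9 replication genes and 12 mitosis genes fell by at least 2-fold. Pola1, the catalytic subunit of the primase-polymerase, stood at 142, 142 and 144 CPM in the control libraries and 43.0, 37.3 and 38.4 CPM in the treated libraries (log2 change -1.85 ± 0.09 SE, adjusted p = 1.74e-08). Tk1, the thymidine kinase of S phase, fell from 196 to 54.4 CPM and Dnmt1, the maintenance DNA methyltransferase, from 572 to 287 CPM. Mki67, the proliferation marker Ki-67, stood at 1665, 1552 and 1634 CPM in the control libraries and 755, 694 and 726 CPM in the treated libraries (log2 change -1.16 ± 0.07 SE, adjusted p = 1.39e-07). Bub1b, the spindle checkpoint kinase BUBR1, stood at 231, 289.8 and 316 CPM in the control libraries and 101, 108 and 100.1 CPM in the treated libraries (log2 change -1.43 ± 0.14 SE, adjusted p = 5.39e-06). Cyclin genes fell as well, Ccna2 by 1.03 and Ccnb2 by 1.17 on the log2 scale, while Cdk1, their partner kinase, fell by 0.38. Cdc20, which activates the anaphase-promoting complex, and Cenpe, a kinetochore motor, changed by -0.18 each without passing.

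Most mitosis promoters hold a CHR, the element that DREAM and its activating counterpart bind, searched as TTTGAA on both strands. It was found in 26 of 38 mitosis promoters (68.4%) against 12.2% of all 10050 promoters, and in 14.6% of 41 replication promoters. CCAAT was found in 73.7% of the mitosis promoters against 39.3% of all. 4 promoters from 70 bases before the start to 25 after it are shown because the CHR lies next to the start in each, with CHR and CCAAT on either strand in capitals. They lie at chr9:70421530-70421624 (minus strand), chr1:139454703-139454797 (plus), chr1:189688062-189688156 (minus) and chr7:80294381-80294475 (plus).
Ccnb2: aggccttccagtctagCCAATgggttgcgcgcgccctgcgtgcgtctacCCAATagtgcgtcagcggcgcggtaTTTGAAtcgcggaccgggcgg
Aspm: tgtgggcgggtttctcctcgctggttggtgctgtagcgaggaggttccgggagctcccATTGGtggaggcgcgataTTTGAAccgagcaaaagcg
Cenpf: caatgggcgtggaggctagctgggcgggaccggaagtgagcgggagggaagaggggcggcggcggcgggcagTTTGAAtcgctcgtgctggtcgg
Prc1: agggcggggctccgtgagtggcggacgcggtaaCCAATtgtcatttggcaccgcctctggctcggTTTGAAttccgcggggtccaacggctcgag
These genes encode cyclin B2, a spindle pole protein, a kinetochore protein and a regulator of cytokinesis. Ccnb2 stood at 144, 140.4 and 134 CPM in the control libraries and 62.2, 60.8 and 62.4 CPM in the treated libraries (log2 change -1.17 ± 0.13 SE, adjusted p = 1.32e-05). Aspm fell from 170.2 to 76.0 CPM, Cenpf from 152 to 76.1 CPM and Prc1 from 181 to 104 CPM.

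Histone genes that are expressed in S phase were lower almost throughout. Of 63 replication-dependent histone genes 61 fell, 54 by at least 2-fold, 2 did not pass and 0 rose (0 at an unadjusted p in limma, and 0 in edgeR and DESeq2), and the median was -1.67. Their summed level went from 6318 to 1905 CPM. Hist1h1a, a linker histone, stood at 226, 318 and 362 CPM in the control libraries and 36.1, 41.1 and 37.1 CPM in the treated libraries (log2 change -2.96 ± 0.21 SE, adjusted p = 3.88e-07). Hist1h2bb, a core histone H2B, fell from 158 to 23.8 CPM (log2 change -2.73 ± 0.11 SE, adjusted p = 3.7e-09). Histone genes are near-identical copies of each other, so counts of single members are uncertain, and the libraries were made from total RNA, in which histone messages without a poly(A) tail are kept. Hist2h4, for one, spread from 353 to 1074 CPM among the controls alone. CCAAT was in 84.2% of 57 histone promoters and the CHR in 43.9%.

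Among 17 G1 cyclins and CDK inhibitors, 8 fell, 8 did not pass and 1 rose (median -0.27). The gene that rose was Rbl2, a pocket protein of DREAM, from 34.8 to 83.5 CPM (log2 change 1.26 ± 0.07 SE, adjusted p = 5.32e-08, up to 13.1% of its counts could come from an overlapping gene). Cdk6 fell the most of the list, from 223 to 77.6 CPM, while Ccnd2 and Cdk4 did not pass (0.04 and 0.01). Of 46 genes of break signalling and repair, 28 fell, 3 rose and 15 did not pass (median -0.32). Top2a, the topoisomerase II of dividing cells and a target of etoposide, stood at 689.6, 765 and 823 CPM in the control libraries and 475, 449.8 and 447 CPM in the treated libraries (log2 change -0.73 ± 0.08 SE, adjusted p = 1.07e-05). Top2b, its relative in resting cells, fell by 0.32 on the log2 scale, a call that was lost without control replicate 1 or 2 or etoposide replicate 2 or 3 (-0.28 to -0.32). The kinase gene Atm fell by 0.64 and Atr by 0.53 on this scale, Chek1 fell from 39.7 to 19.1 CPM, and Trp53bp1 did not pass (0.07). Tdp1, another repair gene of this list, fell from 29.9 to 12.9 CPM. The 3 that rose were Rad52, Lig4 and Xrcc5 (0.56, 0.43 and 0.27), of which Rad52 lost its call without any 1 of control replicates 2 and 3 and the 3 etoposide replicates (0.44 to 0.58).

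Of 20 protein-coding genes with the steepest fall, 5 belonged to the list of amino acid and ATF4 genes and 4 were histones. ATF4 is the transcription factor of the integrated stress response and raises genes for amino acid synthesis and import. All 32 tested genes of the amino acid and ATF4 list passed the test, 28 of them lower, 24 by at least 2-fold, and 4 higher, and the median was -1.62. Slc1a4, a transporter of serine and alanine, stood at 57.3, 62.6 and 64.5 CPM in the control libraries and 4.59, 4.83 and 3.90 CPM in the treated libraries. The treated libraries lay 13.7-fold below the controls (log2 change -3.78 ± 0.12 SE, adjusted p = 4.19e-10). Trib3, a pseudokinase gene induced by ATF4, stood at 21.1, 23.6 and 19.7 CPM in the control libraries and 1.21, 1.82 and 1.70 CPM in the treated libraries (log2 change -3.73 ± 0.20 SE, adjusted p = 4.04e-08). Asns, asparagine synthetase, stood at 887, 896 and 803 CPM in the control libraries and 193, 169.7 and 177 CPM in the treated libraries (log2 change -2.26 ± 0.09 SE, adjusted p = 1.97e-09). Atf4 itself stood at 705, 637 and 531 CPM in the control libraries and 213, 207 and 199 CPM in the treated libraries (log2 change -1.59 ± 0.13 SE, adjusted p = 1.32e-06). Falls also reached the serine and one-carbon pathway, with Phgdh from 241 to 104 CPM and Mthfd2 from 145 to 45.7 CPM, proline synthesis, with Pycr1 from 19.1 to 5.11 CPM, and the cystine importer Slc7a11, from 101 to 30.1 CPM. Outside this list, Aldh1l2, of mitochondrial folate metabolism, fell from 217 to 34.4 CPM and Pck2, mitochondrial phosphoenolpyruvate carboxykinase, fell from 125 to 18.2 CPM (log2 change -2.78 ± 0.12 SE, adjusted p = 6.77e-09).

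The 4 members that rose were Ddit4, Cbs, Ppp1r15a and Cebpb. Ddit4, an inhibitor of mTORC1 that p53 and hypoxia also induce, stood at 1.30, 2.46 and 3.67 CPM in the control libraries and 24.6, 26.0 and 25.7 CPM in the treated libraries (log2 change 3.45 ± 0.38 SE, adjusted p = 1.5e-05). Cbs, of cysteine synthesis, went from 0.830 to 6.93 CPM. Aminoacyl-tRNA synthetase genes, several of which ATF4 also controls, fell in 14 of 20 cases and rose in 1 (median -0.93). Nars stood at 448, 539 and 605 CPM in the control libraries and 185, 179 and 181 CPM in the treated libraries (log2 change -1.54 ± 0.11 SE, adjusted p = 4.71e-07), and Yars, Gars and Sars fell by 1.57, 1.42 and 1.40 on the log2 scale. Qars, the exception, rose by 0.38, or by 0.34 without etoposide replicate 1, where it did not pass (adjusted p = 0.0507).

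The composite element to which C/EBP and ATF proteins bind, searched as TGATGNAA on both strands, was in 2.35% of all promoters. It was in 8 of 29 promoters of the amino acid list (27.6%), in 5 of 13 of the tRNA synthetases (38.5%), in 6.81% of the 470 promoters of genes that fell by at least 2-fold and in 2.17% of those that rose by as much. 4 promoters of genes that fell are shown with the element in capitals. The Slc1a4 window is at chr11:20332689-20332783, that of Asns at chr6:7693185-7693279, that of Slc7a11 at chr3:50443589-50443683 and that of Pycr1 at chr11:120643809-120643878, each on the minus strand.
Slc1a4: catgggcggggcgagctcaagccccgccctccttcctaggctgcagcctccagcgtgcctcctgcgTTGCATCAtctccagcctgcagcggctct
Asns: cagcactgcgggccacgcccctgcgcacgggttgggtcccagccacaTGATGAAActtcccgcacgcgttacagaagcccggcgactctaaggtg
Slc7a11: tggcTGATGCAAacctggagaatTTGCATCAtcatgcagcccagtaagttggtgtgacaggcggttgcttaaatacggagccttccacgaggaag
Pycr1: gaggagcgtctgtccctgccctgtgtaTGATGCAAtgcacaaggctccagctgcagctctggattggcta
Slc7a11 holds the element at 2 places. A match of these letters is a description and says nothing of binding in these cells.

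**Figure D3:**
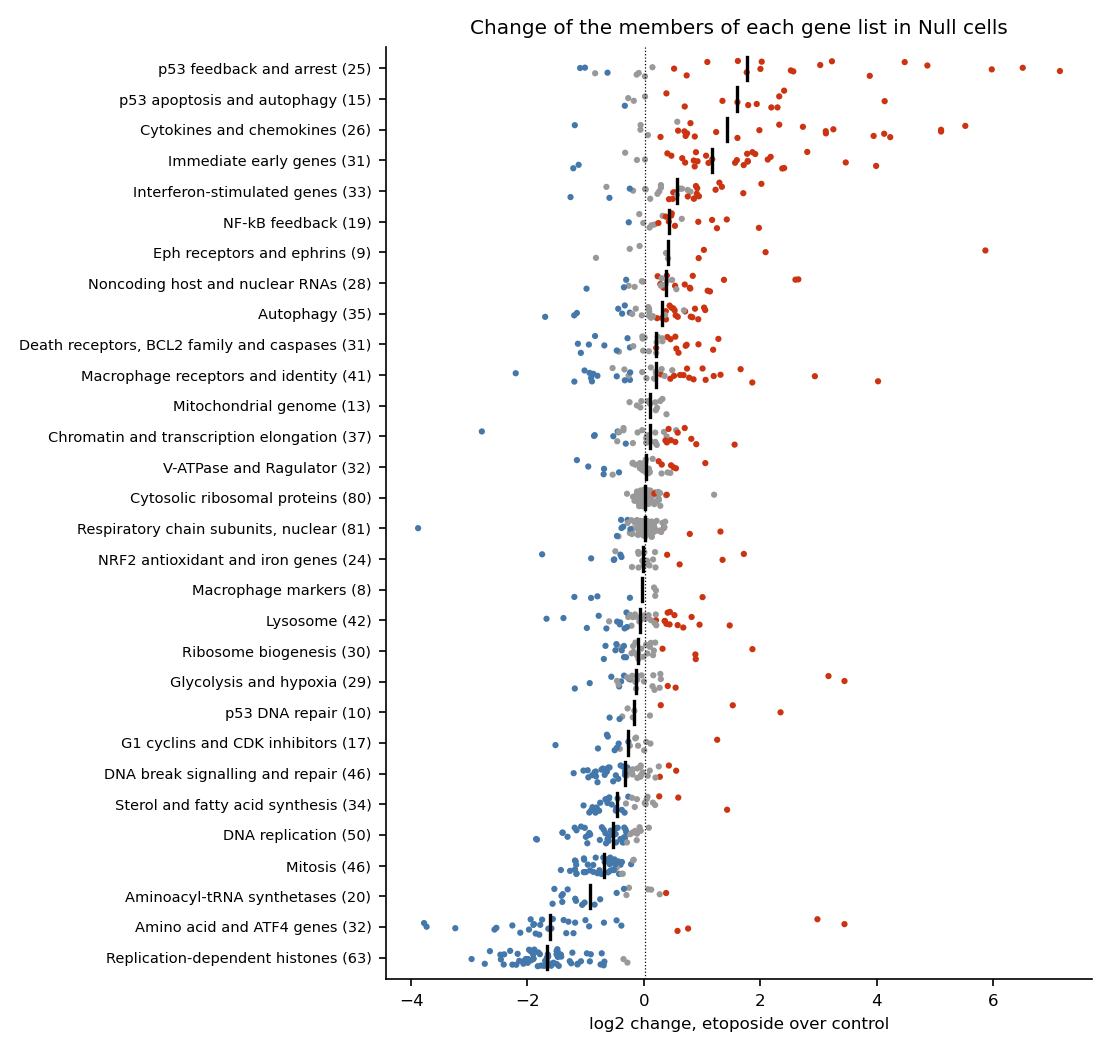
Log2 change (etoposide over control, horizontal axis) of each tested member of 30 gene lists, 1 row a list with the number tested, with called members in red (higher) or blue (lower), others in grey, a black bar at each list's median and a dotted line at the median of all genes (0.03). The p53 lists have medians of 1.77 (feedback and arrest), 1.61 (apoptosis and autophagy) and -0.18 (DNA repair). The amino acid and histone lists have medians of -1.62 and -1.67.

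Most of the listed cytokine and chemokine genes rose. Of 26 cytokine and chemokine genes 21 rose, 14 by at least 2-fold, 1 fell and 4 did not pass, and the median was 1.43 (0.78, with 13 higher, over genes with at least 10 counts in every library). Il1b, the cytokine interleukin-1 beta, stood at 0.130, 0.323 and 0.763 CPM in the control libraries and 18.7, 17.1 and 17.9 CPM in the treated libraries (log2 change 5.52 ± 0.39 SE, adjusted p = 3.31e-07). Cxcl2, a chemokine that draws neutrophils, stood at 1.13, 1.03 and 1.13 CPM in the control libraries and 42.6, 35.9 and 41.5 CPM in the treated libraries (log2 change 5.11 ± 0.15 SE, adjusted p = 3.32e-10). Tnf stood at 178, 159.8 and 134 CPM in the control libraries and 366, 368 and 374 CPM in the treated libraries (log2 change 1.24 ± 0.14 SE, adjusted p = 1.73e-05). Ptgs2, the inducible cyclooxygenase, rose from 12.2 to 117 CPM, Ccl3 from 39.3 to 120.1 CPM and Ccl4 from 2.68 to 23.7 CPM. Lif, a cytokine of the interleukin-6 family, rose from 0.0883 to 4.64 CPM (log2 change 5.11 ± 0.37 SE, adjusted p = 4.82e-07), and Csf3 (G-CSF) from 0.0313 to 1.64 CPM. Ccl5, which interferon regulatory factors control, did not pass (-0.06). Vegfa, the vascular growth factor, was the member that fell, from 24.7 to 10.8 CPM (log2 change -1.19 ± 0.08 SE, adjusted p = 1.57e-07).

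Immediate early genes, which encode transcription factors and feedback phosphatases induced by MAP kinase signals, rose in 26 of 31 cases and fell in 2 (median 1.18). Egr1 stood at 35.4, 24.8 and 20.9 CPM in the control libraries and 113, 116 and 119 CPM in the treated libraries (log2 change 2.13 ± 0.19 SE, adjusted p = 2.63e-06). Dusp5, a phosphatase that switches off ERK, stood at 1.36, 1.84 and 1.69 CPM in the control libraries and 26.8, 26.3 and 26.7 CPM in the treated libraries (log2 change 3.99 ± 0.11 SE, adjusted p = 1.41e-10). Fosl1 rose from 4.04 to 44.2 CPM, Fos by 1.72 and Junb by 1.57 on the log2 scale. The members that fell were Atf3, from 6.802 to 3.07 CPM (log2 change -1.12 ± 0.26 SE, adjusted p = 0.0046), and Klf4, from 8.84 to 3.78 CPM. Atf3 is commonly induced by stress and is also a target of ATF4. Myc rose by 1.87 but stayed below 1 CPM, and its relative Mycn, at 377 to 481 CPM in the controls, fell (log2 change -0.66 ± 0.10 SE, adjusted p = 0.000177).

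Of 19 NF-kB feedback genes 11 rose, 1 fell and 7 did not pass (median 0.43), and the fall was lost without control replicate 2 or any 1 of the etoposide replicates. Nfkbiz, an atypical IkB protein gene, rose from 19.9 to 78.4 CPM (log2 change 1.98 ± 0.12 SE, adjusted p = 1.12e-07) and the adhesion gene Icam1 from 80.4 to 192 CPM, whereas Nfkbia, the classical feedback inhibitor, and Nfkb1 did not pass (0.32 and -0.01). Without control replicate 1 Nfkbia rose by 0.46 (adjusted p = 0.0222), and it also passed without DKO control replicate 1 (0.31). Of 33 interferon-stimulated genes 15 rose, 3 fell and 15 did not pass (median 0.57). Oas2 and Oas3, sensors of double-stranded RNA, rose from 26.9 to 67.9 CPM and from 73.5 to 171 CPM. Ifit2 fell from 11.1 to 4.55 CPM. Isg15 and Cxcl10 did not pass (0.75 and 0.57). Rsad2 and Mx1 rose but stayed below 2 CPM.

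Of 41 macrophage receptor and identity genes 16 rose (39.0%), 12 fell (29.3%) and 13 did not pass (median 0.21, or 0.11 without control replicate 3). Csf1r, the receptor on which macrophages depend for growth, stood at 1623, 1782 and 1849 CPM in the control libraries and 749, 799.5 and 745 CPM in the treated libraries (log2 change -1.19 ± 0.09 SE, adjusted p = 4.34e-07). Csf1, its ligand, rose from 0.271 to 5.52 CPM. Cx3cr1, the fractalkine receptor, fell from 289 to 62.7 CPM (log2 change -2.20 ± 0.07 SE, adjusted p = 6.56e-10) and Irf8, a lineage transcription factor, by 0.87 on the log2 scale. Outside this list, Cd80, a costimulatory ligand for T cells, stood at 1.10, 1.13 and 1.32 CPM in the control libraries and 41.1, 37.1 and 38.3 CPM in the treated libraries (log2 change 4.97 ± 0.10 SE, adjusted p = 1.05e-11). Within the list, Itgax (CD11c) rose from 0.244 to 4.24 CPM, while the phagocyte markers Lyz2 and Cd68 did not pass (0.21 and 0.20). Itga4, also outside it, the integrin alpha 4 chain that binds VCAM-1, lost more CPM than any other gene tested. It stood at 2983, 2689 and 2419 CPM in the control libraries and 665, 604 and 649 CPM in the treated libraries (log2 change -2.07 ± 0.16 SE, adjusted p = 8.12e-07). The next largest losses in CPM among protein-coding genes included Actb, Pkm, Csf1r, Mki67, Mbnl1, a splicing regulator gene that fell from 1140.3 to 262 CPM, and Lcp1, the actin bundler of white blood cells, from 1759.7 to 914 CPM.

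Epha2, a receptor tyrosine kinase that p53 is known to induce, reached by far the highest level among Eph receptors and ephrins. It stood at 3.89, 3.41 and 3.07 CPM in the control libraries and 207, 210.3 and 197 CPM in the treated libraries (log2 change 5.87 ± 0.14 SE, adjusted p = 5.05e-11). 9 of 21 genes of this family could be tested, 4 rose, 0 fell (1 at an unadjusted p under 0.05 in limma, 0 in edgeR and DESeq2 after adjustment, and 1 with the 6 Null libraries alone or without DKO etoposide replicate 1), and the others stayed at or below 6.13 CPM in every Null library. Without control replicate 3 or etoposide replicate 3 the count of rises was 2.

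Many genes of the lysosome and of autophagy are targets of TFEB and TFE3. In the lysosome list 13 of 42 genes rose (31.0%), 11 fell (26.2%) and 18 did not pass, shares close to those of all protein-coding genes (median -0.06, and -0.12 to -0.02 when 1 library was left out). Ctsf and Ctsh, which encode cathepsins, rose from 27.2 to 75.05 CPM and from 31.8 to 61.7 CPM. Lipa, the acid lipase, fell from 465 to 178 CPM (log2 change -1.38 ± 0.18 SE, adjusted p = 7.36e-05). Lamp1, a membrane protein of the lysosome, stood at 715, 664 and 596 CPM in the control libraries and 559, 549.9 and 529 CPM in the treated libraries and missed the threshold (adjusted p = 0.0586), which it passed in DESeq2 and without control replicate 3 (-0.34, adjusted p = 0.0313) or DKO control replicate 1 (-0.28). Its promoter is printed because it holds the E-box CACGTG, the core of the element that TFEB and TFE3 bind, 4 times within the 70 bases before the start (chr8:13159091-13159160, plus strand). The E-box occurred in 10 of 33 lysosome promoters and in 10.0% of all.
Lamp1: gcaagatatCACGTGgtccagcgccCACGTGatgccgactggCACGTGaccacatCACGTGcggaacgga
Among 32 V-ATPase, Ragulator and mTORC1 genes 6 rose (18.8%) and 5 fell (15.6%), both below the shares of all protein-coding genes, with Atp6v1d the most among those that rose (log2 change 1.06 ± 0.11 SE, adjusted p = 1.02e-05). Among 35 autophagy genes 17 rose (48.6%), 7 fell and 11 did not pass (median 0.31), with 11 higher when etoposide replicate 1 was left out. Atg13 rose from 20.4 to 39.1 CPM, Gabarapl1 from 39.2 to 72.0 CPM and Uvrag fell from 106 to 32.8 CPM (log2 change -1.70 ± 0.08 SE, adjusted p = 9.24e-09), while Map1lc3b and Sqstm1 did not pass (0.09 and 0.16).

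Of 34 sterol and fatty acid genes 21 fell and 3 rose (median -0.46). Acaca, acetyl-CoA carboxylase, fell from 119 to 57.9 CPM (log2 change -1.04 ± 0.08 SE, adjusted p = 6.04e-07), and Nr1h3 (LXR-alpha), a sterol sensor, rose from 3.43 to 9.17 CPM. Among 29 genes of glycolysis and hypoxia 4 rose (13.8%) and 7 fell (24.1%), or 5 and 11 without DKO control replicate 1. With all libraries the rises were below and the falls near the shares of all protein-coding genes (24.4% and 21.8%). Hk2, from 66.5 to 34.8 CPM, and Pkm, from 5173 to 3854 CPM, were lower, and Ldha changed by 0.00. Of 24 NRF2 and iron genes 4 rose and 6 fell, again with rises below and falls near the shares of all protein-coding genes. Fth1, ferritin heavy chain, was among those that fell (log2 change -0.91 ± 0.14 SE, adjusted p = 0.00028). Slc11a1 (NRAMP1), a metal transporter of phagosomes, rose from 20.3 to 67.0 CPM. Among cytosolic ribosomal protein genes 78 of 80 did not pass the test. The 2 that rose became 0 without etoposide replicate 2 and 1 without several other libraries, and the median of 0.02 ranged from -0.06 without control replicate 1 to 0.12 without control replicate 3. The respiratory chain had 71 of 81 genes not past the test, and the 7 that fell with all libraries became 4 without control replicate 2 or 3 or etoposide replicate 3, and the 3 that rose became 1 without etoposide replicate 1. Cox6a2, a muscle-type subunit of cytochrome oxidase, was its exception and the steepest fall of all genes called with a level of at least 5 CPM, at 7.46, 6.04 and 5.998 CPM in the control libraries and 0.589, 0.436 and 0.212 CPM in the treated libraries (log2 change -3.88 ± 0.29 SE, adjusted p = 6.08e-07). Of 13 protein-coding genes of the mitochondrial genome 0 passed in limma (1 at an unadjusted p under 0.05), edgeR or DESeq2, and 1 rose with library-size scaling, with the 6 Null libraries alone, or when control replicate 1, etoposide replicate 2 or DKO control replicate 1 or 3 was left out.

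The response was also described by gene length, as the span from the first to the last annotated base. Over 12752 protein-coding genes Spearman's rho of span with the log2 change was -0.17, a description across genes that share the same 6 libraries. In the longest decile (111.5 to 4435 kb) 47.4% of 1276 genes fell and 19.2% rose, and the median was -0.31. In the shortest decile (up to 4.37 kb) 13.8% fell and 20.1% rose, and the median was 0.06. The share that fell was lower still in the second-shortest decile (10.2%) and climbed from there, so it did not follow span over the whole range. Changes of at least 2-fold in both directions were most frequent in the longest decile, where 14.3% fell and 12.4% rose, against 4.69% and 9.07% of all protein-coding genes. The rises lay mainly in the lowest tertile of mean level, with 30.3% there, 1.48% in the middle and 0.789% in the highest tertile. Falls of this size in the longest decile were 9.16%, 16.3% and 18.7% in the same order. Genes in the highest tertile of mean level fell in 71.3% of the longest decile (median -0.56) and those in the middle tertile in 61.2% (median -0.45). In the lowest tertile the filter admits genes through the one group in which they are high. There the median of the longest decile was 0.30 over 491 genes but -0.13 over the 234 of them with at least 10 counts in every library, so no direction is read from it. Spearman's rho with the change was -0.10 for summed exon length and -0.07 for number of exons. It was -0.29 for mean level, a value that includes the genes of low level admitted through one group, so its size is not set against that of span.

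**Figure D4:**
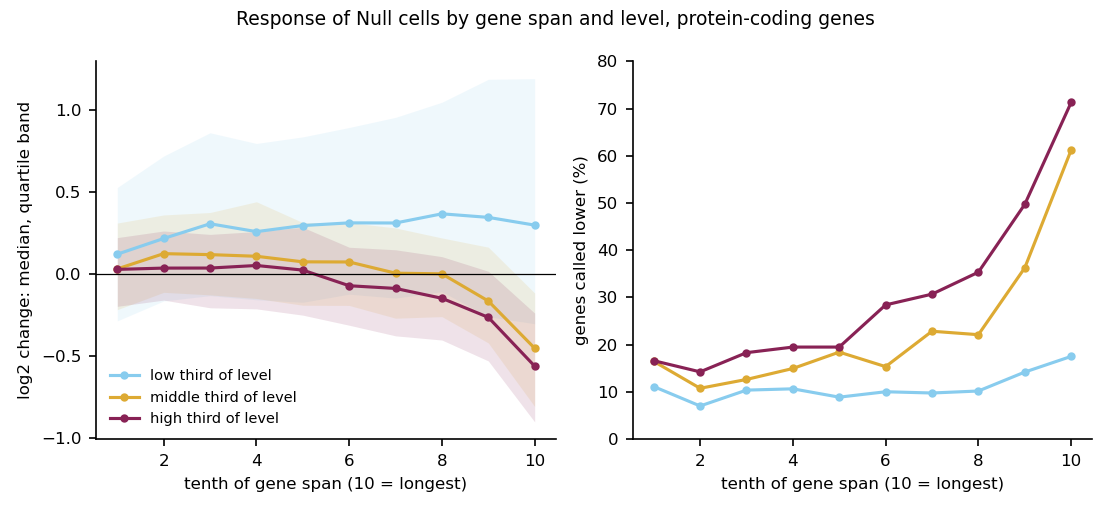
Median log2 change with the quartile band (left) and percent of genes called lower (right) for deciles of gene span, from 1 (shortest) to 10 (longest), within tertiles of mean level of 12752 protein-coding genes. In the high and middle tertiles the share called lower climbs to 71.3% and 61.2% in the longest decile, whereas in the low tertile, where genes can pass the filter through one group alone, it stays between 7.01% and 17.5%.

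Among called genes of the longest decile the steepest falls included Hdac9, a class II histone deacetylase with a span of 869.5 kb, which stood at 51.2, 43.1 and 38.6 CPM in the control libraries and 6.63, 5.68 and 6.75 CPM in the treated libraries (log2 change -2.78 ± 0.25 SE, adjusted p = 2.62e-06). Slc9a9, an endosomal sodium-proton exchanger of 561 kb, fell from 20.3 to 2.91 CPM. Cask, a membrane scaffold kinase gene of 334 kb, fell from 63.0 to 10.9 CPM, Cdk14, a cyclin Y-dependent kinase gene of 617 kb, from 97.8 to 17.1 CPM, and Mef2c, a transcription factor gene of 163 kb, from 414 to 76.4 CPM. Cerkl fell as well, but up to 49.6% of its counts could come from the overlapping Itga4. The 8 long genes with the steepest rise all stayed below 5 CPM. Aldh1l1, a folate dehydrogenase, reached 4.13 CPM from 3 counts in the controls, a ratio of 179.9 with an exact interval from 61.3 to 875, and Carmil1, an actin regulator, went from 0.377 to 4.33 CPM.

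At any size of change, antisense genes, lincRNAs and TEC were called in smaller shares in each direction than protein-coding genes (24.4% higher and 21.8% lower). Of 1071 antisense genes 17.8% rose and 13.1% fell, of 604 lincRNAs 17.4% and 13.6%, and of 912 genes annotated as TEC (to be experimentally checked) 7.46% and 17.4%, with a median of -0.19. At 2-fold or more this held only for TEC that rose, with 10.3% of antisense genes and 10.1% of lincRNAs higher against 9.07% of protein-coding genes, and 5.70%, 5.46% and 8.77% of antisense genes, lincRNAs and TEC lower against 4.69%. Of 28 chosen host and nuclear RNAs 14 rose and 3 fell (median 0.38). Malat1, a nuclear RNA, stood at 1931, 2101 and 2244 CPM in the control libraries and 3749, 3450.3 and 3701 CPM in the treated libraries (log2 change 0.80 ± 0.10 SE, adjusted p = 6.82e-05), and Neat1, of paraspeckles, did not pass (-0.01). Mir22hg, the host of miR-22, rose from 1.84 to 11.5 CPM and Mir17hg, the host of the miR-17 cluster, fell by 0.34 on the log2 scale. Gm26917, a noncoding gene on chromosome 17, rose from 6732 to 14285 CPM (log2 change 1.10 ± 0.16 SE, adjusted p = 0.000144). The antisense gene 5830418P13Rik had the steepest rise of a noncoding gene, from 5 counts to a mean of 14 CPM, a ratio of 365 with an interval from 156 to 1126. Hexim1, which holds the elongation factor P-TEFb in its inactive 7SK complex, rose from 28.1 to 82.8 CPM (log2 change 1.56 ± 0.08 SE, adjusted p = 3.01e-08).

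Whether the Null response differed from that of DKO cells was tested as an interaction, the DKO change minus the Null change. It was called for 1708 of 18066 genes (9.45%), 554 above 0 and 1154 below. The number above 0 was 350 without etoposide replicate 3, 368 without control replicate 2 and 876 in DESeq2. The word MEFs stands in the titles of the 3 treated DKO libraries, although their other labels give RAW264.7, and both lines enter the interaction with their own controls. Cdkn1a rose by 3.03 in Null and 1.59 in DKO cells (interaction -1.44, adjusted p = 0.000118). Plk2 rose by 7.15 and 3.60 (-3.55, adjusted p = 2.11e-05). Among mitosis genes all 46 had an interaction below 0, as for Ccnb2, whose changes were -1.17 in Null and -5.47 in DKO cells (-4.30, adjusted p = 1.12e-08). Of the 32 amino acid genes 6 had a called interaction, 4 of them below 0. Trib3 changed by -3.73 and -6.35 and Slc7a11 by -1.75 and -0.39. For Asns the interaction of 0.22 did not pass.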

How the data were processed

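Stranded, ribosomal RNA-depleted libraries were made from total RNA and sequenced as read pairs. The authors deposited unnormalised read counts for each gene, made by aligning reads with HISAT2 and counting uniquely mapped pairs. The study's methods name HTSeq for the counting, whereas the submitters' processing notes name featureCounts and the mm10 build. No version is given in the sources used here. Keeping uniquely mapped pairs lowers counts of genes with near-identical copies.

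Gene identifiers without version were matched to GENCODE M21 (99.4% of 32688). Groups came from the sample titles. In R 4.3.3, edgeR 4.0.16 kept 18066 genes by filterByExpr on 4 groups (99.96% of counts), and library sizes were scaled by TMM (1.006 to 1.034 in Null libraries). Log2 CPM with a prior count of 3 from all 12 libraries were fitted in limma 3.58.1 by limma-trend with robust moderation, which the study's methods name, and with a mean per group. The filter, the prior count and the fit over 4 groups are choices made here. P-values are two-sided and adjusted by the Benjamini-Hochberg method over all genes tested. Replicates of a group differed by 3.61 to 47.1 times the counting variance, so none was the same library sequenced again. Separate libraries of the same culture cannot be told from separate cultures in this way.

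The lists (32) and the genes named were chosen with earlier results of these data known. Genes were named by a rule: the 20 steepest rises and 20 steepest falls of called protein-coding genes at 5 CPM or more, of each list the 4 steepest called genes in each direction, the 2 most abundant and some well-known members that did not pass, Trp53, Tfeb, Tfe3 and Mitf, the 8 largest CPM gains and losses, 8 long genes and 5 noncoding genes in each direction. 61 further genes (Cdkn1a, Mdm2 and Atf4 among them) were added after their values were seen, and some genes that the rule names are not reported here. Intervals of count ratios are exact (Clopper-Pearson) and cover counting error only. The share of counts that an overlapping gene could supply was estimated as the shared exon bases times the counts per exon base of that gene. Alternatives were library-size and DESeq2 1.42.0 scaling, edgeR and DESeq2 tests, other filters, a prior count of 0.5, a replicate block, the 6 Null libraries alone, leaving out each library and, chosen after seeing the data, 10 counts in every library within the low tertile of level.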

Additional observations from a re-analysis of the deposited data

Results flagged for a closer look

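The response differed between Null and DKO cells, by the interaction term in limma, for 1708 genes, which is 9.45% of those tested and is likewise what set apart each gene listed here. Values are log2 differences, the change in DKO cells less the change in Null cells, and an adjusted p under 0.05 applied to each. Among p53 genes the interaction was -3.55 for Plk2, -2.05 for Pmaip1, -1.86 for Fas, -1.57 for Bbc3, -1.53 for Trp53inp1, -1.44 for Cdkn1a, -1.13 for Ccng1 and -0.79 for Mdm2. Sesn1, of the same list as Cdkn1a, had an interaction above 0 (0.74). Among cell cycle genes it was -4.30 for Ccnb2, -2.99 for Mki67, -2.30 for Top2a, -2.23 for Hist1h1a and -1.62 for Bub1b. Robo3 (-1.77), Epha2 (-3.18), Cd80 (-1.26), Egr1 (-3.55), Cxcl2 (-0.77), Trib3 (-2.62) and Hdac9 (-1.60) also lay below 0. Il1b (1.93), Itga4 (0.85), Csf1r (0.59) and Tfeb (1.16) lay above 0, where Tfeb is one of the genes disrupted in the DKO line. Groups of 3 libraries were not searched for single outlying values of a gene.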

How the results depend on the processing

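Total numbers of called genes stayed within 1.5 times the main count under each alternative run, with 1 exception. A filter on at least 10 counts in every library gave 1358 genes changed by at least 2-fold against 2381 (51.4% higher against 62.9%). Rises of this size were 698 against 1497 and falls 660 against 884. The median of the longest decile of genes (-0.31) was -0.44 with that filter, -0.45 and -0.56 within the middle and high tertiles of mean level and reversed to 0.30 within the low tertile, which became -0.13 when 10 counts in every library were also required (chosen after seeing the data). Leaving out 1 library in turn gave 5900 to 8036 called genes, 2261 to 2523 of at least 2-fold and 1203 to 2038 with an interaction, of which 350 to 809 were above 0 (554 with all libraries, 876 in DESeq2). The replicate block gave 6450 called genes, 2334 of at least 2-fold and 1310 with an interaction. Deviations of same-numbered control and treated libraries had correlations of 0.033, 0.012 and -0.021, and those of other pairs ran from -0.065 to 0.068. These values cannot show whether same-numbered cultures were handled together. edgeR called 7125 genes and DESeq2 7642. Of 292 named genes past the threshold, 27 lost the call under at least 1 of 21 alternatives and none changed direction. No list median that lay further from 0 than its own replicate spread changed sign. That spread is the standard deviation of the list's median between replicates, pooled over both Null groups. Depth limits genes of low level, where a few counts in the controls set the ratio. Null cells come from 1 line, and which library was made with which RNA kit is not given in the sources used here.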

Other observations

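Among the 20 steepest rises, several genes outside the lists went from near absence to a clear level. Fam198b, a Golgi protein gene, had a log2 change of 6.17 and went from a mean of 0.666 to 52.1 CPM. Trim7, a ubiquitin ligase gene, went from 0.73 to 23.1 CPM, Mab21l3 from 0.286 to 12.7 CPM, the predicted gene 9530053A07Rik from 0.106 to 19.3 CPM and Cep170b, a relative of a centrosome protein gene, from 3.31 to 91.6 CPM. Their groups did not overlap. Among the 20 steepest falls, Hpgd, which inactivates prostaglandins, went from 184 to 25.1 CPM, and Stc2, a secreted stanniocalcin of the amino acid list, from 40.9 to 4.20 CPM. 1700025G04Rik, a gene in the longest decile by span, went from 83.5 to 14.9 CPM.

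Of 30 ribosome biogenesis genes 4 rose (13.3%) and 8 fell (26.7%; median -0.11, or -0.16 and -0.04 without control replicate 1 and 3), with the nucleolin gene Ncl lower (-0.69) and Odc1, of polyamine synthesis, and Rrn3, an initiation factor of RNA polymerase I, higher (0.89 each). Of 37 chromatin and elongation genes 10 rose (27.0%) and 7 fell (18.9%), near the shares of all protein-coding genes (24.4% and 21.8%), with a median of 0.10 that was 0.19 without control replicate 1. Ezh2, the methyltransferase of Polycomb, fell by 0.86 and Kmt2c, a histone H3 methyltransferase gene, by 0.84 on the log2 scale, while its relative Kmt2d rose by 0.90.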
